A study of Mus musculus with 4 samples.

Results

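Replication-dependent histone genes are transcribed and their mRNAs are cut by a dedicated set of factors. Of this set, 10 symbols were read in testis cells selected as spermatogonia, with and without intact retinoic acid signalling. A row was taken when its gene symbol equalled a listed one. This found 9 of 10 symbols among 43998 rows of the table, each on a row of its own, and all 9 reached 1 RPKM in at least 1 genotype. The listed spelling Symplk had no row. Symplekin is encoded by Sympk, which has a row, and its values stand beside the 9 without entering their counts. The mutant cells came from mice described as carrying a germ cell mutation of retinoic acid signalling, and the control cells from control mice. Both were described as THY1-positive spermatogonia, taken with beads against CD90.2 from testes of C57BL/6 mice on postnatal day 4. RNAs of macrophage, Sertoli and Leydig cell genes were also present in both, as given below, so the values are those of a mixed fraction. The modified gene, the driver of the modification and the number of animals behind a library are not stated by the labels. Each genotype had 2 libraries, and the table gives 1 combined RPKM value for both. RPKM divides reads by transcript length and by depth, so levels of different genes are compared per length below. With 1 value per genotype no difference could be set against replicate spread, and no test, SD or n is given.

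Histone mRNAs of S phase end in a stem-loop and not in a poly(A) tail. NPAT, a coactivator, and HINFP, a transcription factor of H4 genes, act at the histone loci, where NPAT and FLASH (Casp8ap2) gather in the histone locus body. The stem-loop binding protein SLBP holds the 3′ end. The U7 particle, an RNA in a ring in which Lsm10 and Lsm11 replace 2 spliceosomal Sm proteins, positions the cleavage complex of symplekin, CPSF2 and the endonuclease CPSF3. Zfp473 is known in mammals as a zinc finger protein that binds Lsm11 and the SLBP complex.

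The RNA elements these factors act on are shown first. In the reference transcripts (GENCODE M21, GRCm38) the histone stem-loop consensus was found in 38 core histone genes, taken by the form of their names, and in 10 of 55277 other genes. The commonest form was shared by 23 of the 38. The transcripts of H2afz, H3f3a and H3f3b, histone variants made outside S phase, gave 0 matches among 3 genes. For each core histone class the gene with the highest mean level among those with a match is printed, all from chromosome 13. The 16 bases in capitals are the stem-loop to which SLBP binds, written as DNA.
Hist1h2ab: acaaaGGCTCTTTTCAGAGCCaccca
Hist1h2bm: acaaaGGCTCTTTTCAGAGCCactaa
Hist1h3a: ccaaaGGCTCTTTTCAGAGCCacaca
Hist1h4d: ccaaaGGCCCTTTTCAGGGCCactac
The H2A, H2B and H3 genes carried the same 16 bases, and the H4 gene carried another form of the consensus. In Hist1h4d the match lay 770 bases from the end of the reference transcript, which thus runs far past the stem-loop. It lay 11 bases from the end in Hist1h2ab, 46 in Hist1h2bm and 37 in Hist1h3a. The U7 RNA gene Rnu7 lies on the minus strand of chromosome 6 from 124741225 to 124741286. Its 62 bases are given because it is the RNA that Lsm10 and Lsm11 hold, with the Sm site bound by the ring, bases 21 to 31, in capitals.
Rnu7: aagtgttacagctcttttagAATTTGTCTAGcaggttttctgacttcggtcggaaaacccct
The table gave Rnu7 no value of its own, since its row is shared with Atn1 and Grcc10.

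The 9 factors split between lower and higher mutant values, and the split ran through both the transcription group and the U7 group. Differences are given as log2((mutant RPKM + 1) / (control RPKM + 1)), which makes differences of scarce transcripts look smaller than they are. The lowest were Zfp473, at -0.52, and Lsm10, at -0.42, and the highest were Npat, at 0.39, and Hinfp, at 0.34. Of the 9, 6 had mutant values below control and 3 above, with a median of -0.05. Among 16473 genes that reached 1 RPKM in the mutant or the control, 49.6% lay below control and the median was 0.005. All 9 factors are protein-coding, and of the 12184 protein-coding genes in the comparison 6788 lay below control, with a median of -0.06. At 2-fold or more, 0 of 9 factors were higher, where 4.4% of all genes were, and 0 of 9 were lower, where 4.35% were. With a log2 difference of 0.32 or more, a smaller threshold, 2 of 9 were higher (Npat and Hinfp), where 25.9% of all genes were, and 2 of 9 were lower (Zfp473 and Lsm10), where 26.5% were. At this threshold 2232 of the 12184 protein-coding genes were higher and 3612 were lower. The shares of the factors are near the background, and the counts carry no error rate because no test was possible.

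**Figure D1:**
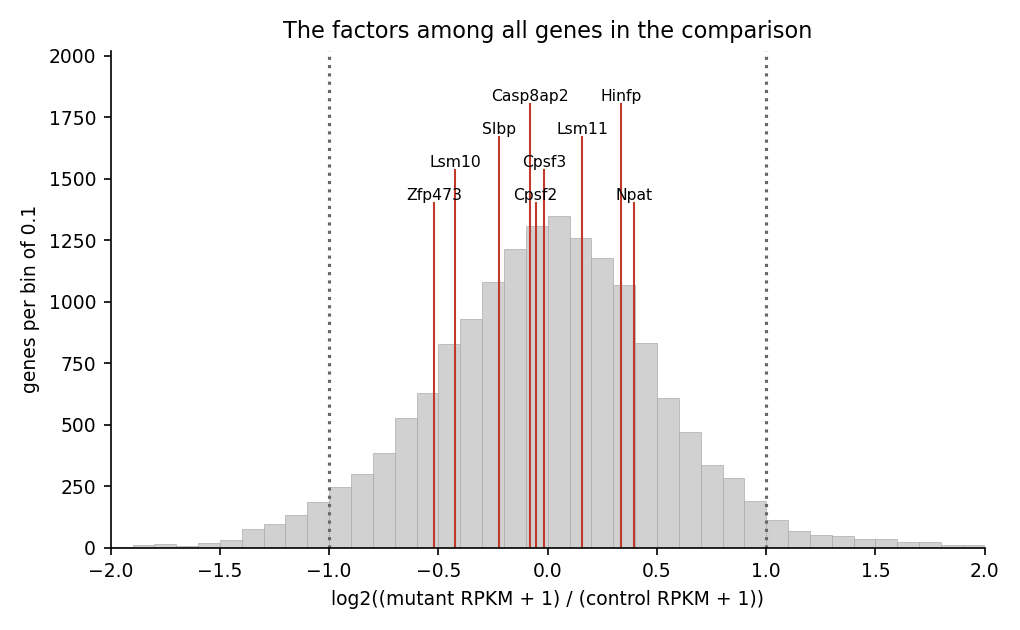
Histogram of log2 differences (mutant over control, 1 added to each RPKM) of all genes in the comparison in bins of 0.1 within -2 to 2, with a red line for each of the 9 factors and dotted lines at 2-fold. The factors lie between -0.52 and 0.39, inside the central mass of genes.

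Among the transcription factors and coactivators, Npat and Hinfp were higher in mutant cells and Casp8ap2 was nearly level. Npat (chromosome 9, 53537047 to 53574342) was at 27.2 RPKM in mutant cells and 20.5 RPKM in control cells, a ratio of 1.33. Hinfp (chromosome 9, 44292440 to 44305671 in GENCODE, with a table row that begins at 44295673) was at 26.8 RPKM in mutant cells and 21.02 RPKM in control cells, a ratio of 1.27. Both genes thus had mutant levels close to that of Casp8ap2 (chromosome 4, 32615451 to 32653265), which was at 26.7 RPKM in mutant cells and 28.3 RPKM in control cells. The reads behind these values were estimated from the steps in which low RPKM values moved, and the 95% exact binomial interval of a ratio below covers counting error only. Npat rested on about 9125 mutant and 6724 control reads, giving an interval of 1.29 to 1.37. For Hinfp, on about 7864 mutant and 6045 control reads, it was 1.23 to 1.32. The Hinfp reads assume a GENCODE transcript of 5333 bases, and the table row is shorter than the gene, so they may be too many and the interval too narrow. For Casp8ap2 the ratio of 0.944 had an interval of 0.917 to 0.970, and none of the 3 intervals contains 1. When all values were rescaled so that germ cell identity genes had a median of 0, Npat turned to -0.22 and Hinfp to -0.28.

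Slbp was the most abundant of the 9 factors in both genotypes and was modestly lower in mutant cells. It encodes the protein that binds the stem-loop and stays with histone mRNA into translation. Slbp (chromosome 5, 33634952 to 33652574 in GENCODE, as for all genes here, within a table row that runs to 33678995) was at 119 RPKM in mutant cells and 139 RPKM in control cells. The ratio was 0.856, with a counting interval of 0.834 to 0.877. The interval assumes a GENCODE transcript of 1906 bases, and the table row is longer than the gene, so it is approximate. Its mean level exceeded that of 95.9% of all genes in the comparison. Per length, Slbp stood at 4.37 times Npat in mutant cells and at 6.78 times Npat in control cells. The log2 difference of Slbp was -0.22 and stayed below 0 under the 11 other settings run, between -0.86 and -0.10.

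**Figure D2:**
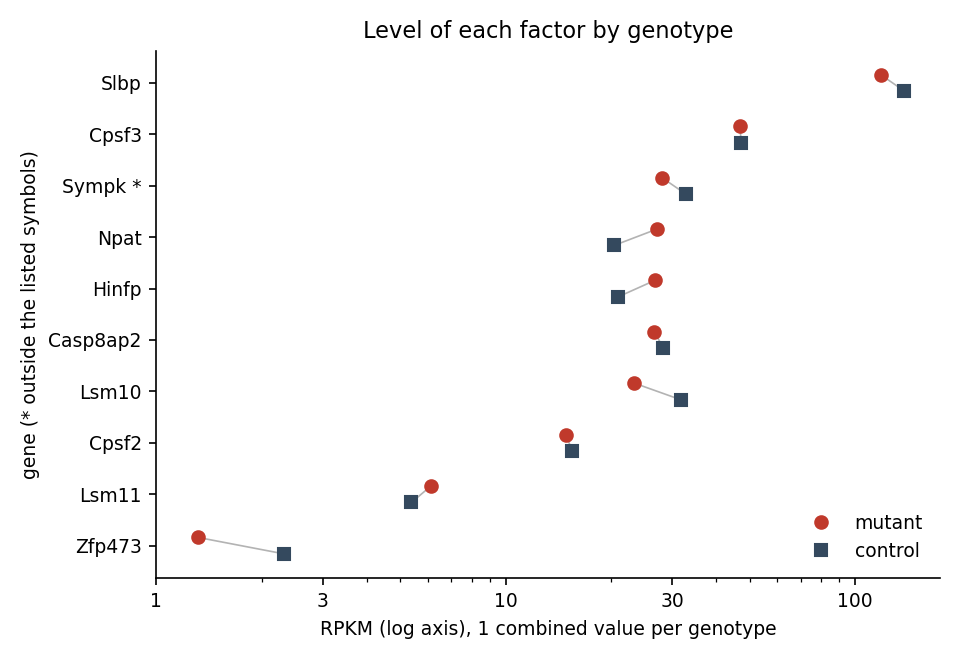
RPKM (log axis) of the 9 factors and of Sympk (asterisk) in mutant (red circles) and control (dark squares), 1 combined value per genotype. Slbp lies above 100 RPKM in both genotypes and Zfp473 below 3 RPKM in both, while Npat and Hinfp have the mutant value to the right of the control value.

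The U7-specific ring proteins differed in direction as deposited, though rescaled to the germ cell genes both lay below 0, Lsm10 at -1.03 and Lsm11 at -0.37. Lsm10 (chromosome 4, 126096623 to 126098584) was at 23.4 RPKM in mutant cells and 31.7 RPKM in control cells, a ratio of 0.738 with a counting interval of 0.672 to 0.809. Its log2 difference was -0.42, and -0.08 with the length and GC trend of protein-coding genes removed. Lsm11 (chromosome 11, 45928269 to 45944935), the larger protein that also contacts FLASH, was at 6.11 RPKM in mutant cells and 5.38 RPKM in control cells. Its ratio was 1.14, with an interval of 1.07 to 1.21. Both proteins occur once in a ring, and their RNAs were unequal in level, Lsm10 standing at 3.83 times Lsm11 in mutant cells and at 5.90 times in control cells. Snrpd1 and Snrpd2, the spliceosomal proteins they replace, had far higher RNA levels than their U7 counterparts. Snrpd1 was at 77.0 RPKM in mutant cells and 89.0 RPKM in control cells, which was 3.29 times Lsm10 in the mutant and 2.81 times in the control. Snrpd2 was at 180 RPKM in mutant cells and 231 RPKM in control cells, which was 29.5 times Lsm11 in the mutant and 42.9 times in the control.

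Zfp473 was the scarcest factor and had the largest ratio difference of the 9. Zfp473 (chromosome 7, 44731480 to 44751050, within a table row that runs to 44777515) was at 1.32 RPKM in mutant cells and 2.32 RPKM in control cells, 1.76-fold lower in the mutant. The interval of the ratio of 0.567, from 0.485 to 0.663, is the widest because about 257 mutant and 445 control reads stand behind it. These reads assume a GENCODE transcript of 3624 bases, and the table row is longer than the gene, so the interval is approximate. On the log2 scale with 1 added the difference was -0.52, and without a pseudocount it was -0.82. Zfp473 overlaps Vrk3 on the opposite strand, a kinase gene at 22.4 RPKM in mutant cells and 26.5 RPKM in control cells. The labels do not state whether the libraries kept strand, so reads of the overlap cannot be told apart.

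**Figure D3:**
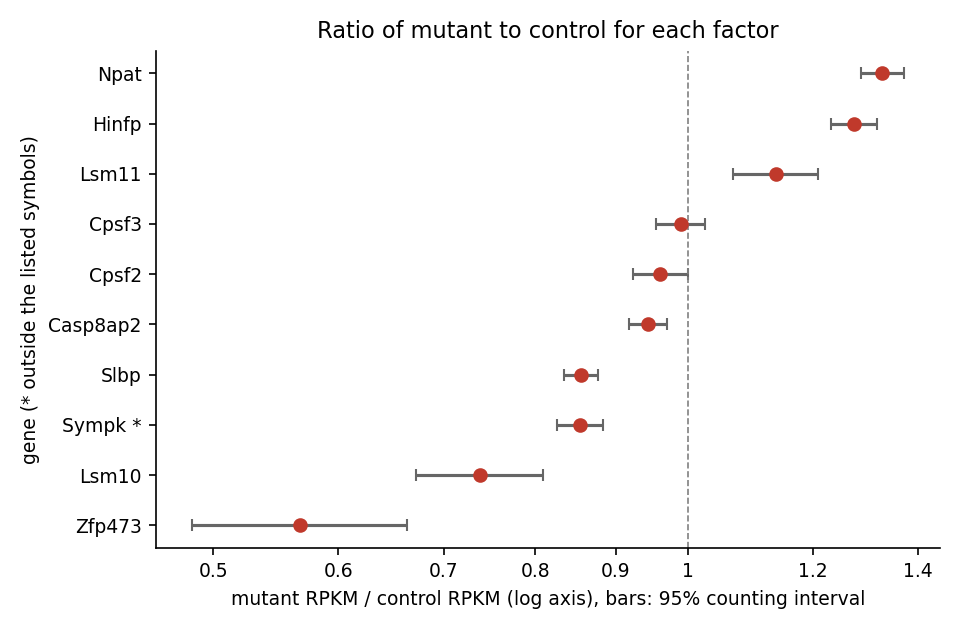
Ratio of mutant to control RPKM (log axis) of the 9 factors and Sympk (asterisk), with bars for the 95% exact binomial interval from estimated reads, which covers counting error and not animals or libraries. Npat, Hinfp and Lsm11 lie above 1, Cpsf3 and Cpsf2 have intervals that touch 1, and Zfp473 is lowest at 0.567.

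The cleavage subunits Cpsf3 and Cpsf2 had the smallest differences of the 9 as deposited, but with either length and GC trend removed Cpsf2, at -0.17 and -0.15, lay farther from 0 than Slbp and Lsm11. Cpsf3 (chromosome 12, 21285391 to 21315056), the endonuclease that also cuts polyadenylated mRNAs, was at 46.9 RPKM in mutant cells and 47.4 RPKM in control cells. The ratio of 0.989 had a counting interval of 0.955 to 1.03. Cpsf2 (chromosome 12, 101975988 to 102006424), its catalytically inactive partner, was at 14.9 RPKM in mutant cells and 15.5 RPKM in control cells, a ratio of 0.961. Its interval ran from 0.923 to 1.0001. For both genes a difference was not detectable beyond counting error, and the pair kept its ratio, Cpsf3 standing at 3.14 times Cpsf2 in mutant cells and at 3.05 times in control cells. The symplekin gene Sympk (chromosome 7, 19024377 to 19054618), the scaffold of the complex, was at 28.0 RPKM in mutant cells and 32.8 RPKM in control cells, a ratio of 0.854 with an interval of 0.825 to 0.884. With Sympk added, 7 of 10 genes lay below control and the median was -0.07.

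The start regions of the factors were read for shared features. Npat is transcribed away from Atm, the DNA damage kinase gene, whose start lies 307 bases upstream on the other strand. Atm was at 46.4 RPKM in mutant cells and 33.6 RPKM in control cells, a log2 difference of 0.46 beside 0.39 for Npat. Rescaled to the germ cell list, both lay below 0, Atm at -0.17. Of 498 such pairs of protein-coding genes with starts within 1000 bases, 60.4% shared a direction and 4.42% had both members higher in the mutant by 0.32 or more on the log2 scale. Itgb1bp1 starts on the other strand, 893 bases inside Cpsf3 by the GENCODE bounds. The table row of Cpsf3 begins later, at 21286297, so by that row the Itgb1bp1 start lies just upstream of Cpsf3. Itgb1bp1 was at 21.2 RPKM in mutant cells and 29.3 RPKM in control cells, while Cpsf3 was level. Foxa3, with a start 839 bases upstream of Sympk, was near 0 in both genotypes, at 0.325 RPKM in mutant cells and 0.281 RPKM in control cells.

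The 250 bases before the start are printed for Npat, for the shared region with Atm, and for Slbp and Lsm10, the abundant stem-loop and U7 factors with lower mutant values. They come from RefSeq on GRCm38.p6, at chr9:53536797-53537046 (plus strand), chr5:33652575-33652824 (minus strand) and chr4:126096403-126096652 (plus strand). Capitals mark the CCAAT box, searched on both strands.
Npat: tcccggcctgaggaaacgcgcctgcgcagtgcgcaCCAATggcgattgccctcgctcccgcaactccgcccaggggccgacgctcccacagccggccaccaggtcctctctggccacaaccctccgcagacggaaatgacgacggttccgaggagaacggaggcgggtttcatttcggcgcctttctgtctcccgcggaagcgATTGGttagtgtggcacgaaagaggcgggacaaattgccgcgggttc
Slbp: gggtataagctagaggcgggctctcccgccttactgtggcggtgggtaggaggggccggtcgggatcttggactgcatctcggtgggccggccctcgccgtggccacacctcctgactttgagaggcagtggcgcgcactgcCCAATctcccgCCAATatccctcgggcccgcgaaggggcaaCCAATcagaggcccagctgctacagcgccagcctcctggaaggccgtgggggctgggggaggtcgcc
Lsm10: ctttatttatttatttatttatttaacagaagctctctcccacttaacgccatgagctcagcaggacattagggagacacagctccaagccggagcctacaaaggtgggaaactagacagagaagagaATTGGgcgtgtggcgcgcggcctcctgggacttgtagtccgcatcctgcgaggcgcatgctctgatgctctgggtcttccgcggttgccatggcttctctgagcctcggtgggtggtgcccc
Of the 9 factors and Sympk, 9 genes had such an entry, with 11 windows in all because Zfp473 has several starts. A CCAAT box was present in 5 of the 9, with 3 in Slbp, 2 in Npat, 2 in Casp8ap2, 1 in Lsm10 and 1 in a window of Zfp473. Among all 32851 promoter windows of this length 33.8% held one. This is a share of single windows, whereas the 5 of 9 counts genes with a box in any of their windows. The E2F octamers TTTCCCGC, TTTGGCGC, TTTCGCGC and TTTGCCGC were found on either strand in 1 gene, Casp8ap2, and in 1.86% of all windows. The GC box GGGCGG was found in as many genes as the CCAAT box, 5 of the 9, and in 32.7% of all windows. The ETS motif CCGGAAG was found in 1 gene, Zfp473, and in 6.91% of all windows. The CCAAT box was present in genes with higher and with lower mutant values alike, and a match of letters shows no binding.

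Genes listed as other regulators of histone gene transcription or of the histone locus had values on both sides of control. Of 10 such genes in the comparison, 3 lay below control and 7 above, with a median of 0.19, and 0 passed 2-fold. Atm, described above as the neighbour of Npat, is counted among the 10, at 0.46. The cell cycle transcription factor gene E2f1 had the lowest difference, -0.67, at 9.97 RPKM in mutant cells and 16.5 RPKM in control cells. The kinase gene Cdk2 and its partner Ccne1, which phosphorylate NPAT at the start of S phase, were at -0.34 and -0.63. Ccne1 was at 7.92 RPKM in mutant cells and 12.8 RPKM in control cells, while Ccne2 was at 23.0 RPKM in mutant cells and 21.4 RPKM in control cells. Cramp1l had the highest difference, 0.63, at 17.1 RPKM in mutant cells and 10.7 RPKM in control cells. With either length and GC trend removed 5 lay below and 5 above, with medians of 0.07 and 0.09, and Ccne2 turned to -0.17 and -0.07. The list median turned to -0.42 after rescaling to the germ cell list.

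The machinery shared with other RNAs gave the nearest comparisons. All 7 Sm proteins lay below control, with a median of -0.21, from Snrpe at -0.39 to Snrpb at -0.18, and 6 of 7 did with quantile normalization or with either length and GC trend removed. As deposited, Lsm10 lay below this range and Lsm11 above it, whereas with the protein-coding trend removed Lsm10, at -0.08, lay above the Sm median of -0.11. Genes of the polyadenylation machinery lay above control for 10 of 14, with a median of 0.23. Cpsf2 and Cpsf3, which they work with, lay at -0.05 and -0.02. Some genes of the list lay as near 0, among them Cpsf1 at 0.008, Cpsf4 and Cpsf6 at -0.04 and Cstf2t at -0.02. The extremes of the list were Rbbp6 at 0.77, with 77.3 RPKM in mutant cells and 45.0 RPKM in control cells, and Nudt21 at -0.25. The Integrator complex, which cuts small nuclear RNAs, had 7 of 9 genes above control and a median of 0.15. Its relatives of the pair, Cpsf3l for Cpsf3 and Ints9 for Cpsf2, were at -0.13 and 0.15, and its highest gene was Ints6 at 0.52. Rescaled to the germ cell genes, the medians of the polyadenylation and Integrator lists were -0.39 and -0.44. Of the Sm, polyadenylation and Integrator genes, 0 passed 2-fold.

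**Figure D4:**
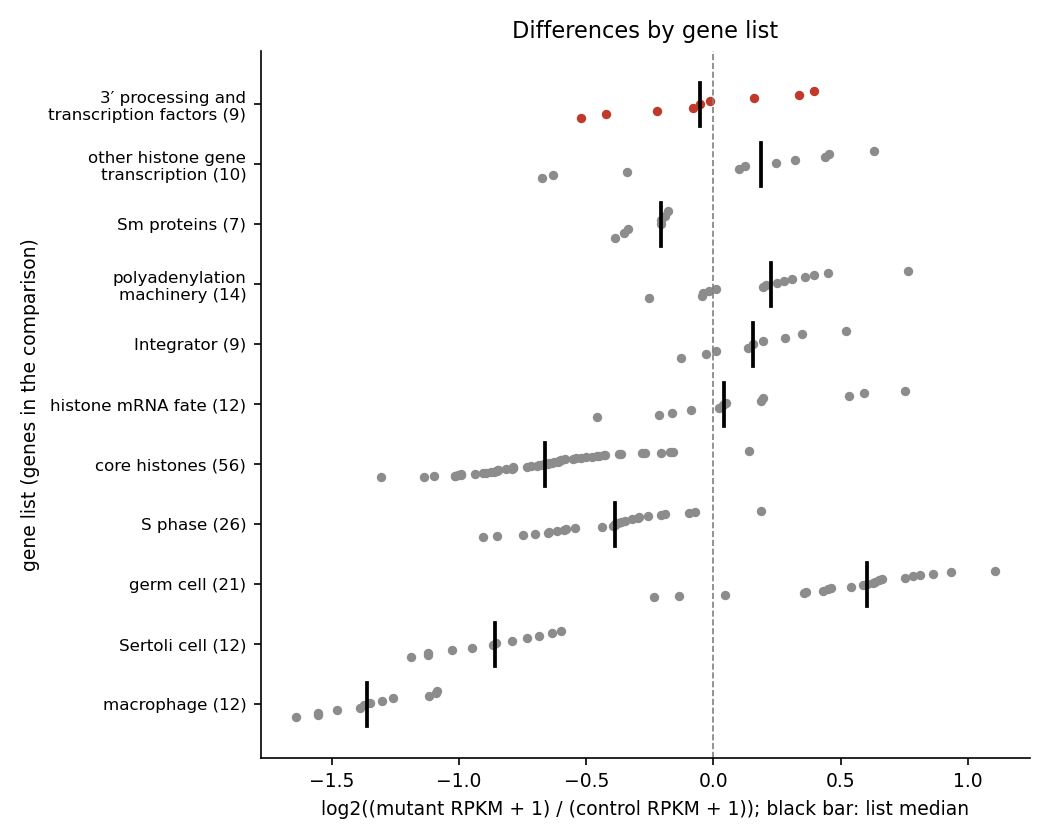
Log2 differences (mutant over control, 1 added to each RPKM) of single genes by list, with the number of genes in parentheses and a black bar at the list median. The 9 factors (red) spread about 0 with a median of -0.05, while core histone genes have a median of -0.66 and germ cell genes one of 0.60.

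Factors that act on the histone mRNA after cleavage had a median of 0.04, with 4 of 12 below control and 0 past 2-fold. The cap-binding gene Ncbp1 was highest at 0.75, with 74.9 RPKM in mutant cells and 44.1 RPKM in control cells. Mif4gd, the SLBP-interacting translation factor, was lowest at -0.46, with 16.2 RPKM in mutant cells and 22.7 RPKM in control cells. The exonuclease gene Eri1, whose product trims the stem-loop, was at 11.3 RPKM in mutant cells and 11.2 RPKM in control cells. Rescaled to the germ cell genes, this median was -0.56.

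Core histone RNAs lay mostly below control. The values do not show whether RNA was selected by its poly(A) tail, and such selection would leave out mRNAs that end in the stem-loop. The core histone genes were taken by the form of their names, which also took in Hist3h2bb-ps, a pseudogene by its name. Of these 56 genes 55 lay below control, with a median of -0.66, and Hist1h2ba lay above it, at 0.14. A stem-loop was found in a reference transcript of 32 of the 56. These 32 had a median of -0.66, all 32 below control. With the length and GC trend of protein-coding genes removed the core histone median was -0.23, with 51 of 54 below 0, and rescaled to the germ cell genes it was -1.28. For the 4 printed genes the mutant to control ratio was 0.659 for Hist1h2ab, 0.629 for Hist1h2bm, 0.666 for Hist1h3a and 0.742 for Hist1h4d, and near-identical copies can share reads. Genes of S phase and DNA replication lay below control for 25 of 26, with a median of -0.39, from Rrm1 at -0.90 to Pole at 0.19. Slbp, at -0.22, lay between the median of the S phase list and that of the 9 factors. No test of the difference between these lists was made.

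Several measures moved with genotype in the same values. Germ cell identity genes lay above control for 19 of 21 (about 0 by construction when rescaled to them), and their summed level was 1581 RPKM in mutant cells and 1113 RPKM in control cells. Macrophage genes lay below control for 12 of 12, with a sum of 1750 RPKM in mutant cells and 4787 RPKM in control cells. Sertoli cell genes did so for 12 of 12 (239 RPKM in mutant cells, 499 RPKM in control cells), Leydig cell genes for 4 of 4 (155 RPKM in mutant cells, 458 RPKM in control cells) and myoid and fibroblast genes for 7 of 7 (140 RPKM in mutant cells, 268 RPKM in control cells). Endothelial genes did so for 5 of 8 (30.2 RPKM in mutant cells, 33.4 RPKM in control cells), and 0 of the markers with a row in these lists stood at 0 in either genotype. Of 13 genes of spermatogonial state, 3 were 2-fold higher and 3 were 2-fold lower. Zbtb16, among these 13, is also counted in the 21 germ cell identity genes used for rescaling. Whether spermatogonial state moved that scale was not tested. The log2 difference was 1.72 for Neurog3, 1.46 for Sox3 and 1.11 for Zbtb16, and it was -2.27 for Stra8, -1.41 for Kit and -1.28 for Gfra1. Stra8, a gene known to be induced by retinoic acid, was at 8.60 RPKM in mutant cells and 45.2 RPKM in control cells. Thy1, the gene of the sorting antigen, was at 8.61 RPKM in mutant cells and 7.11 RPKM in control cells, and Ddx4 and Dazl, which define germ cells, were at 114 and 353 RPKM in mutant cells and at 88.6 and 274 RPKM in control cells. The part of cell composition and spermatogonial state in the differences of the 9 factors was not tested. In bulk RNA, fewer cells of a type and less RNA per cell cannot be told apart.

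Among protein-coding genes, transcript length and base composition also moved with the differences. The decile of protein-coding genes with the shortest transcripts had a median of -0.27 and the decile with the longest a median of 0.15. The decile with the lowest GC content had a median of 0.13 and that with the highest one of -0.22. Across 15491 genes of all kinds, which are not independent, Spearman's rho with the difference was 0.004 for length and -0.24 for GC content. Lsm10 has the shortest principal transcript of the 9, 808 bases, and Npat and Lsm11, at 6062 and 6453 bases, are among the longest. The longest, Casp8ap2 at 6557 bases, lay at -0.08, and Cpsf2, at 5732 bases, lay at -0.05. Over the 9 factors Spearman's rho of the difference with principal transcript length was 0.5. The trends were fitted on the longest protein-coding transcript of a gene and not on the principal one. For Zfp473 the longest has 9230 bases and the principal one 3624, and the effect of this choice was not tested. With the trend of protein-coding genes removed, Lsm10 stood at -0.08, Npat at 0.24, Hinfp at 0.28 and Zfp473 at -0.71, and Cpsf3 turned to 0.08. With the trend over all genes removed, Lsm10 stood at -0.24, Npat at 0.19, Hinfp at 0.28, Zfp473 at -0.70 and Cpsf3 at 0.05.

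**Figure D5:**
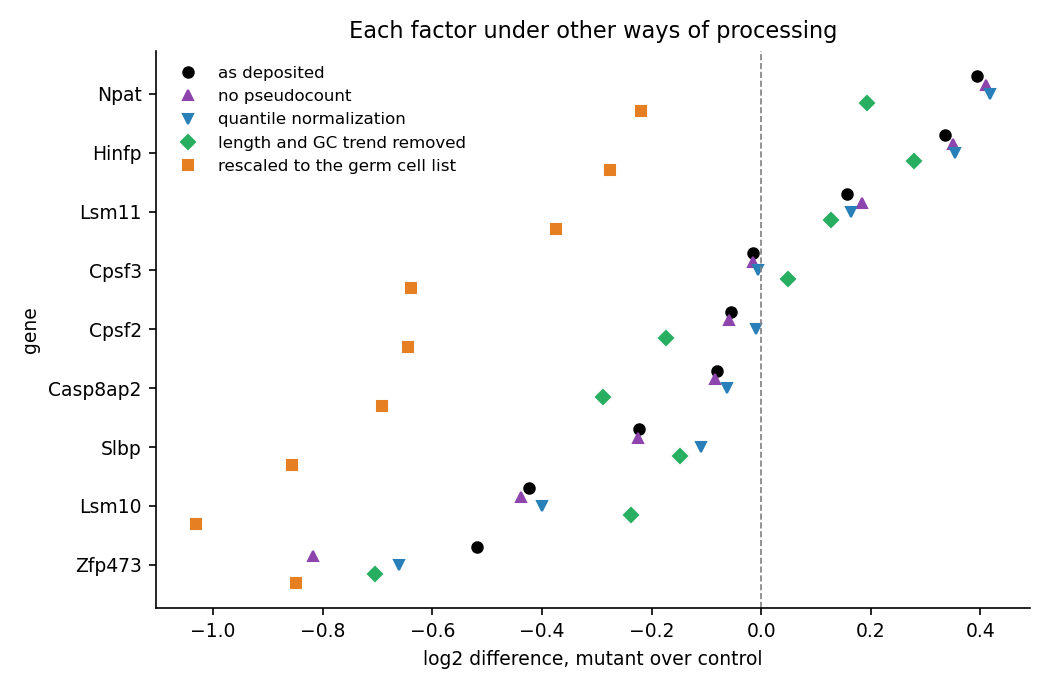
Log2 difference (mutant over control) of each of the 9 factors as deposited (black circles) and under 4 other ways of processing, coded by colour and shape. Rescaled to the germ cell list all 9 lie below 0, as do 83.2% of all genes, with Npat at -0.22 and Lsm10 at -1.03. As deposited Npat, Hinfp and Lsm11 lie above 0.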

How the data were processed

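The deposited values are RPKM, per the file headers, in 2 columns that each combine 2 libraries of a genotype. The submitters' processing notes name TopHat2 2.0.11 and GRCm38. How reads were counted, with which annotation, and how libraries were combined is stated by neither the labels nor the header. The 10 symbols and all gene lists were chosen with earlier results of these data known. Rows with several gene symbols were left out of the lists, and where a symbol repeated the row with the highest mean was used. Genes needed at least 1 RPKM in the mutant or the control, and 1 was added before log2. Named beside the 9 factors are the highest and lowest gene of each pathway list and of the S phase list, any gene past 2-fold in them, direct relatives and head-to-head neighbours. Core histone genes were named as the most abundant of each class with a stem-loop. Cdk2, Ccne1, Ccne2, Eri1, Vrk3, Ddx4, Dazl and the spermatogonial genes were added after values were seen. So were Cpsf1, Cpsf4, Cpsf6, Cstf2t, Hist1h2ba and Hist3h2bb-ps.

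Depth was read from 21485 genes with 1 GENCODE M21 transcript. Of values up to 10 reads, in transcripts of 1000 bases or more, 90.8% in mutant and 85.4% in control lay within 0.1 of a whole read. The steps correspond to 57.3 M mutant and 56.0 M control reads, if no further scaling entered, and single reads per library could not be had. Read numbers used the shortest principal transcript of a gene, so they are approximate. The 9 other settings chosen at the start were the pseudocount, the filter, quantile normalization, rescaling to germ cell genes or to all genes, a length and GC trend (lowess, span 0.2) and summed rows, and 2 were added after seeing the data. Python 3.11.15, pandas 2.3.3, SciPy 1.17.1 and statsmodels 0.14.6 were used, and the depth and fold steps were tested on simulated data.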

Additional observations from a re-analysis of the deposited data

How the results depend on the processing

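Neither the 0 of 9 factors past 2-fold nor the direction of the median changed under the pseudocounts, quantile normalization, rescaling to all genes, summed rows, the filters or either length and GC trend. Rescaling to the germ cell list, which lowered the median of all genes to -0.53, gave a median of -0.65 for the factors, with 1 past 2-fold (Lsm10, at -1.03). Then 7 of 9 were lower by 0.32 or more on the log2 scale, where 66.3% of all genes were. At the same threshold 0 were higher, where 7.19% of all genes were. As deposited 4 were past 0.32 in size. All 9 lay below 0 on the rescaled values, Lsm11 at -0.37, where 83.2% of all genes did. Of all genes 2.34% were then 2-fold higher and 18.1% were 2-fold lower. With the length and GC trend over all genes removed the median was -0.15. There 1 factor was lower by 0.32 or more, where 24.9% of all genes were. With the trend of protein-coding genes removed 1 factor was, where 22.9% of those genes were. The cause was not tested. The direction of Slbp, Lsm10, Zfp473, Casp8ap2 and Cpsf2 was the same in every setting run, that of Npat, Hinfp and Lsm11 reversed on rescaling to the germ cell list, and that of Cpsf3 with either trend removed, at 0.05 and 0.08. With an RPKM of 5 required Zfp473 dropped out. No paired analysis was possible because each genotype has 1 combined column, so leaving out a library could not be run either. Depth limits Zfp473 most.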

Other observations

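Several genes of the pathway share a row with another gene, and their values cannot be assigned to them alone. Ccnf, which marks SLBP for degradation after S phase, shares a row with Mir5134 at 31.4 RPKM in mutant cells and 43.5 RPKM in control cells. Srrt, a partner of the cap-binding complex on histone mRNA, shares one with Mir7036 at 95.4 RPKM in mutant cells and 75.5 RPKM in control cells. Coil, the scaffold of the Cajal body, shares one with 2210409E12Rik at 14.4 RPKM in mutant cells and 12.7 RPKM in control cells. Cstf2, which is also found in the histone cleavage complex, shares one with Mir3112 at 63.9 RPKM in mutant cells and 57.0 RPKM in control cells. The row that holds Rnu7 stood at 149 RPKM in mutant cells and 185 RPKM in control cells.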
